A study of Mus musculus with 148 samples.

Results

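A set of 8 genes for chromatin regulators on mouse chromosome 3 were followed through Xist-mediated silencing, namely *Setdb1*, *Ash1l*, *Trim33*, *Gatad2b*, *Pogz*, *Actl6a*, *Chd1l* and *H2afz*. They were chosen by name, for the function of their products, with earlier results of these data known. All 8 had a ratio in both tables analysed here. They are 8 of the 538 genes listed for WT and *Suz12* null cells and 8 of the 517 listed for *Lbr* null cells, with 498 genes shared by the tables.

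The study used a line described earlier, with an inducible Xist transgene on an autosome, and asked which factors silencing requires. The cells were iXist-Chr3 mESCs, a male (XY) mouse embryonic stem cell line from a 129S × Cast cross (line P4D7F4), in which a TetOn promoter drives full-length Xist RNA from the Cast copy of chromosome 3 when doxycycline (Dox) is added. All 20 libraries used here came from cells held for 3 days in differentiation medium, either without Dox (NoDox) or with Dox for 72 h. Feeder fibroblasts were used in culture of the stem cells. The groups were WT cells (3 NoDox and 3 Dox libraries), *Suz12* null cells (3 and 3), *Lbr* null cells (3 and 3) and a further WT pair of 1 NoDox and 1 Dox library, listed with the *Lbr* null cells. The *Lbr* null libraries were 1 NoDox and 1 Dox library from each of 3 knockout clones, 4C7A, 4C8E and 4F9F, whereas the *Suz12* null cells were 1 line. The titles of the WT pair call it mRNA, whereas its other labels are those of the chromatin RNA libraries, so genotype and kind of library cannot be told apart wherever *Lbr* null cells are set against it. The growth protocol in the labels gives a shorter induction for every sample, and the time course labels were used. *Suz12* and *Lbr* lie on other chromosomes, so the knockout labels were not checked against their RNA. None of *Sox2*, a stem cell marker, and *Postn*, *Vcam1* and *S100a4*, markers of feeder fibroblasts, had a ratio in either table, so the cell type was not checked here.

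Xist RNA spreads in cis over the chromosome that expresses it and represses its genes, through Spen and its corepressors and through the Polycomb complexes. Suz12 is a core subunit of PRC2, which places methyl groups on lysine 27 of histone H3, and Lbr is a receptor of the nuclear lamina. The 8 genes encode proteins that write, read, move or make up chromatin, and here the silencing of the genes themselves was measured.

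The measurement was ChrRNA-seq, the sequencing of RNA that stays with chromatin. The deposited value is the allelic ratio Xi/(Xi + Xa), with Xi for the Cast allele, on which Xist RNA is made, and Xa for the 129S allele. Silencing z is the change of the mean ratio from NoDox to Dox, and is negative when the Xi allele is repressed. The limits of the study's methods were kept, with z above -0.05 as weak or no silencing, z below -0.2 as high silencing and low silencing between them. Read numbers do not accompany the ratios, so the depth behind each value is unknown and no interval is given for a single ratio. Cells that differ in how many express Xist RNA and cells that differ in how far each silences a gene cannot be told apart in these bulk ratios.

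The replicate libraries were not alike over the whole chromosome. With Dox, the median z over all 538 genes was -0.168, -0.174 and -0.141 in WT replicates 1, 2 and 3, and -0.134, -0.141 and -0.0974 in the *Suz12* null replicates. Replicate 3 was thus the least silenced library of both lines. The same medians over the 8 genes were -0.107, -0.0997 and -0.0701 in WT and -0.0824, -0.0811 and -0.0774 in *Suz12* null cells. These values set each Dox library against the NoDox mean of its line. Each *Lbr* null clone was set against its own NoDox library, with medians over the 8 genes of -0.155 (4C7A), -0.156 (4C8E) and -0.137 (4F9F), beside -0.195, -0.192 and -0.197 over all 517 genes.

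Xist RNA reduced the Xi share of all 8 genes in WT cells. By limma, all 8 fell at an adjusted p under 0.05, where 85.5% of all genes did so, and in all 8 the Dox libraries were without exception lower than the NoDox libraries, as in 87.4% of all genes. The call of *Actl6a* was lost on the logit scale and without any of 8 of the 12 libraries, and 7 or 8 genes were called when single libraries were left out. The median z of the 8 genes was -0.0903, beside -0.158 over all 538 genes. *Chd1l* alone reached high silencing, 5 genes showed low silencing, and *Actl6a* and *Ash1l* showed weak or no silencing. With single libraries left out the z of *Ash1l* ranged from -0.0517 to -0.0443, across the limit of -0.05. Over all genes the shares were 39.6% high, 52.6% low and 7.81% weak or none. From strongest to weakest the order in WT was *Chd1l*, *Pogz*, *Trim33*, *Setdb1*, *H2afz*, *Gatad2b*, *Ash1l* and *Actl6a*. No step of this order was tested. *Pogz* and *Trim33* had z of -0.161 and -0.138, with limma standard errors of 0.0152 and 0.0121. The values of *Setdb1*, *H2afz* and *Gatad2b* (z from -0.0970 to -0.0763), and those of *Ash1l* and *Actl6a* (-0.0476 and -0.0405), lay closer together than the limma standard errors of 0.0149 to 0.0229 could separate.

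**Figure D1:**
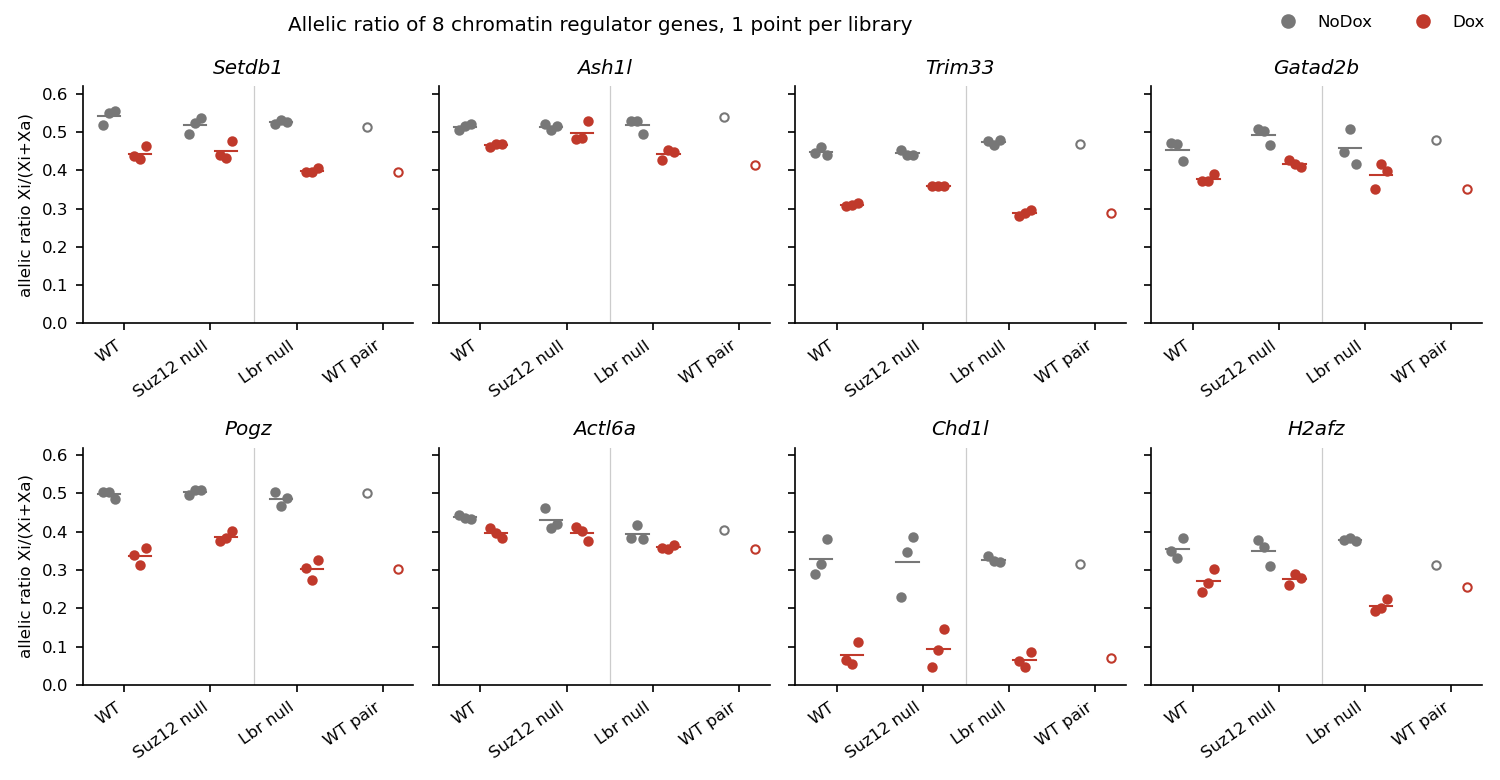
Allelic ratio Xi/(Xi+Xa) of the 8 genes (y axis) in each line (x axis), with NoDox libraries in grey, Dox libraries in red, 1 point per library, group means as horizontal lines and the WT pair as open circles. The grey line divides the tables. The Dox ratios of *Chd1l* lay lowest, at 0.0769 on average in WT, whereas those of *Actl6a* stayed close to its NoDox ratios.

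*Setdb1* and *Ash1l* encode histone methyltransferases. Setdb1 methylates lysine 9 of histone H3 and represses retroelements in mESCs, and Ash1l methylates lysine 36 of histone H3 and counters Polycomb. *Setdb1* (chr3:95323525-95357202, minus strand, mm10) had WT ratios of 0.518, 0.550 and 0.554 in NoDox and 0.437, 0.430 and 0.464 with Dox, a fall of the mean from 0.541 ± 0.0197 to 0.444 ± 0.0181 (SD, n = 3 each; limma, adjusted p = 0.000658). The groups did not overlap, and 385 of the 538 genes were silenced more strongly. *Suz12* null cells had 0.494, 0.524 and 0.537 in NoDox and 0.439, 0.433 and 0.477 with Dox (z = -0.0686, limma adjusted p = 0.00707). In the *Lbr* null clones the ratios were 0.520, 0.531 and 0.526 in NoDox and 0.396, 0.396 and 0.405 with Dox (z = -0.126, limma adjusted p = 0.000119). Those clones differed from each other by little, and the WT pair gave 0.513 and 0.395.

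*Ash1l* (chr3:88965812-89079375, plus strand) kept most of its Xi RNA. Its WT ratios were 0.505, 0.515 and 0.520 in NoDox and 0.462, 0.469 and 0.468 with Dox, a small but separate fall (z = -0.0476, limma adjusted p = 0.0123). In *Suz12* null cells the groups overlapped, with 0.522, 0.504 and 0.515 in NoDox and 0.483, 0.485 and 0.528 with Dox (z = -0.0155, adjusted p = 0.359). The Dox value of 0.528, from replicate 3, exceeded every NoDox value, and without that library z was -0.0301 (limma adjusted p = 0.0495). Other single removals brought it as near 0 as -0.00758. The *Lbr* null clones had 0.529, 0.528 and 0.495 in NoDox and 0.426, 0.452 and 0.449 with Dox (z = -0.0754, limma adjusted p = 0.00456), a call lost without clone 4C7A (adjusted p = 0.0627). The WT pair, at 0.540 and 0.414, differed more than any clone.

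*Trim33*, *Gatad2b* and *Pogz* encode proteins that work with corepressors. Trim33 is a ubiquitin ligase of the Smad pathway that reads modified histone tails, Gatad2b is a subunit of the NuRD complex, and Pogz is a zinc finger protein that binds HP1. *Trim33* (chr3:103279293-103358770, plus strand) had the smallest limma standard error of the 8 genes in the table of WT and *Suz12* null cells, 0.0121. Its WT ratios were 0.444, 0.461 and 0.440 in NoDox and 0.307, 0.309 and 0.314 with Dox (z = -0.138, limma adjusted p = 2.695e-06). In *Suz12* null cells they were 0.453, 0.440 and 0.440 in NoDox, and 0.359 in each of the 3 Dox libraries (SD 0.000375; z = -0.0856, limma adjusted p = 0.000112). Its Dox ratio was thus higher in every *Suz12* null library than in any WT library, from like NoDox ratios. The *Lbr* null clones had 0.477, 0.466 and 0.479 in NoDox and 0.281, 0.288 and 0.297 with Dox (z = -0.1855), and the WT pair 0.467 and 0.287.

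*Gatad2b* (chr3:90341654-90358120, plus strand) was listed over 16.5 kb only, within a RefSeq gene that runs from 90293181 to 90363405. Its WT ratios were 0.470, 0.468 and 0.424 in NoDox and 0.372, 0.371 and 0.390 with Dox (z = -0.0763, limma adjusted p = 0.00207). *Suz12* null cells had 0.508, 0.504 and 0.466 in NoDox and 0.427, 0.416 and 0.409 with Dox (z = -0.0753, limma adjusted p = 0.00291). Both groups of the null line had higher means than in WT, by 0.0384 in NoDox (95% interval -0.000433 to 0.0773, and 0.0233 to 0.0519 with single libraries left out). The z estimates were alike. The clones were the most variable for this gene, with 0.448, 0.508 and 0.416 in NoDox and 0.351, 0.417 and 0.397 with Dox. The NoDox and Dox values overlapped between clones but each clone had the lower ratio with Dox, and z was -0.0689 (limma adjusted p = 0.06275, or 0.0421 with the clone as a block). The WT pair gave 0.478 and 0.351.

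*Pogz* (chr3:94837567-94883567, plus strand) had the lowest z of these corepressor partners in WT, though its difference from *Trim33* was not tested. Its WT ratios were 0.503, 0.505 and 0.484 in NoDox and 0.338, 0.314 and 0.358 with Dox (z = -0.161, limma adjusted p = 5.04e-06). In *Suz12* null cells they were 0.495, 0.509 and 0.509 in NoDox and 0.376, 0.383 and 0.402 with Dox (z = -0.117, limma adjusted p = 6.17e-05). No Dox library of the null line fell within the range of the WT Dox libraries. The *Lbr* null clones had 0.503, 0.468 and 0.488 in NoDox and 0.306, 0.273 and 0.326 with Dox (z = -0.185, limma adjusted p = 0.000172), close to the WT pair at 0.501 and 0.302.

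*Actl6a* and *Chd1l* encode parts of the machinery that moves nucleosomes, and had the highest and the lowest z of the 8 genes in WT and in *Lbr* null cells. In *Suz12* null cells the highest z was that of *Ash1l*. Actl6a is an actin-related subunit of the BAF complexes and of other remodellers, and Chd1l is an ATPase that is activated by poly(ADP-ribose) at DNA breaks. *Actl6a* (chr3:32708546-32726971, plus strand) had WT ratios of 0.443, 0.436 and 0.433 in NoDox and 0.408, 0.398 and 0.384 with Dox (z = -0.0405, limma adjusted p = 0.0436). This was the weakest silencing of the 8 genes, and 508 of the 538 genes were silenced more strongly. The call was lost on the logit scale (adjusted p = 0.0518) and when any of 8 of the 12 libraries was left out, namely any of the 6 WT libraries, *Suz12* null NoDox replicate 3 or *Suz12* null Dox replicate 2 (adjusted p from 0.0527 to 0.115). *Suz12* null cells had 0.461, 0.410 and 0.420 in NoDox and 0.413, 0.403 and 0.376 with Dox, with overlap (z = -0.0326, adjusted p = 0.101). With single libraries left out that z ranged from -0.0429 to -0.0172. The *Lbr* null clones had 0.385, 0.418 and 0.381 in NoDox and 0.358, 0.355 and 0.366 with Dox (z = -0.0350, limma adjusted p = 0.0617, or 0.0491 without moderation of the variance), and z ranged from -0.0447 to -0.0212 with single clones left out. The WT pair gave 0.404 and 0.356.

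*Chd1l* (chr3:97560748-97610190, minus strand) started from an unequal balance of alleles, with WT NoDox ratios of 0.290, 0.315 and 0.382, and fell to 0.0647, 0.0545 and 0.112 with Dox (z = -0.252, limma adjusted p = 0.000227). In *Suz12* null cells it had 0.231, 0.347 and 0.385 in NoDox and 0.0470, 0.0906 and 0.146 with Dox (z = -0.226, limma adjusted p = 0.000615). Its replicates were the most scattered of the 8 genes in both lines. The *Lbr* null clones were tighter, at 0.336, 0.324 and 0.321 in NoDox and 0.0633, 0.0476 and 0.0856 with Dox (z = -0.262), and the WT pair gave 0.315 and 0.0701. Of the odds of an Xi read, Xi/Xa, 17.0% remained with Dox in WT cells, against 84.7% for *Actl6a*. A predicted RefSeq gene on the opposite strand, *Gm40102*, covers 23.9% of the *Chd1l* interval. *Fmo5*, also on the opposite strand, covers 0.512% of it. The reads were counted by strand.

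*H2afz* (RefSeq symbol *H2az1*, chr3:137864487-137866922, plus strand) encodes the histone variant H2A.Z, which marks promoters and enhancers. It was the only one of the 8 genes on the telomeric side of the transgene and, at 2.44 kb, the shortest. H2A.Z has a close paralogue, so reads of this gene are less certain than those of the others, although the authors kept unique alignments only. The WT ratios were 0.351, 0.330 and 0.384 in NoDox and 0.244, 0.267 and 0.304 with Dox (z = -0.0836, limma adjusted p = 0.00592). *Suz12* null cells had 0.379, 0.361 and 0.311 in NoDox and 0.260, 0.290 and 0.279 with Dox (z = -0.0738, limma adjusted p = 0.0142), a call lost without replicate 1 of NoDox (adjusted p = 0.0554) or of Dox (0.0503). The *Lbr* null clones had 0.377, 0.384 and 0.376 in NoDox and 0.192, 0.201 and 0.224 with Dox (z = -0.174, limma adjusted p = 6.06e-05). The WT pair had 0.312 and 0.256, and all 3 clones were lower with Dox than the pair. In *Setdb1*, *Ash1l* and *Gatad2b* all 3 clones were higher with Dox than the pair. For *Setdb1* and *Gatad2b* the lowest clone barely exceeded it. The pair has 1 Dox library, and the share of all genes with every clone on 1 side of it was not counted.

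Whether silencing requires PRC2 was addressed by the difference between *Suz12* null and WT cells. Within the *Suz12* null line 6 of the 8 genes fell by limma, where 73.2% of all genes did so, and *Actl6a* and *Ash1l* did not pass. Those 6 genes also had no Dox library above a NoDox library, as did 75.1% of all genes. The median z of the 8 genes was -0.0745 in *Suz12* null cells, beside -0.122 over all genes, and the median residual odds were 72.3%, against 67.7% in WT. Over all genes these were 59.0% and 48.8%.

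In the test of the difference itself, none of the 8 genes passed at an adjusted p under 0.05 by limma, where 0.372% of all genes (2 of 538) did so. All 8 estimates were above 0, that is, towards weaker silencing in *Suz12* null cells, as were 79.0% of all genes, with a median of 0.0343. For *Actl6a*, *Chd1l*, *Gatad2b* and *H2afz* the sign changed when certain single libraries were left out. *Trim33* had the largest estimate, 0.0524 (95% interval 0.0146 to 0.0902), which passed at an unadjusted p of 0.0114 but not after adjustment (limma adjusted p = 0.294). It was the only one of the 8 genes, and 1 of 71 genes in all, with an unadjusted p under 0.05. The call depended on how the spread was estimated. Without moderation the adjusted p of *Trim33* was 0.0252. *Pogz* followed with 0.0432 (-0.00456 to 0.0909), *Ash1l* with 0.0321 (-0.0148 to 0.0790) and *Setdb1* with 0.0284 (-0.0301 to 0.0870). With single libraries left out the estimate ranged from 0.0175 to 0.0400 for *Ash1l* and from 0.0149 to 0.0398 for *Setdb1*. The interval of *Chd1l*, -0.104 to 0.155, was the widest, and differences of that size were not detectable. For *Gatad2b* (0.00098, -0.0540 to 0.0560), *Actl6a* (0.00786, -0.0452 to 0.0610) and *H2afz* (0.00989, -0.0620 to 0.0818) the estimate was small, with an interval that reaches 0.0560 or more.

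With Dox, every *Suz12* null library lay above every WT library in 4 of the 8 genes (*Trim33*, *Ash1l*, *Gatad2b* and *Pogz*), as in 23.8% of all genes. For *Gatad2b* the NoDox mean was higher in the null line too. Before induction none of the 8 genes differed between the lines by limma, at an adjusted or an unadjusted p under 0.05, where 0.0% of all genes (0 of 538) passed after adjustment and 29 did at an unadjusted p. Without moderation 1 gene of the table passed, which was not among the 8.

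**Figure D2:**
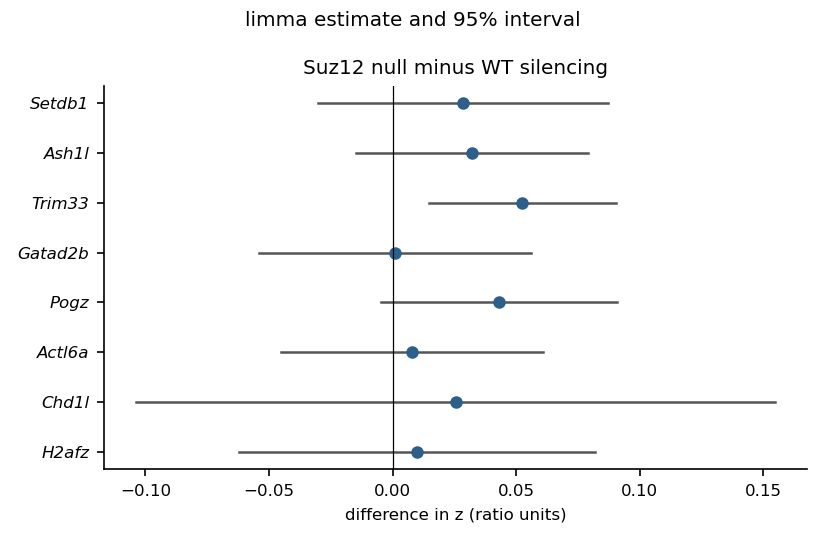
Difference in silencing z, *Suz12* null minus WT, for each of the 8 genes in ratio units (x axis), as the limma estimate (point) with its 95% interval (line). Values above 0 mean weaker silencing in the null line. *Trim33* has the only interval apart from 0 (0.0146 to 0.0902), and it did not pass after adjustment over all genes.

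The contribution of Lbr was addressed in the 3 null clones. By limma 6 of the 8 genes fell, where 92.5% of all genes did so, and *Actl6a* and *Gatad2b* did not pass. That fit did not pair the libraries of a clone, and with the clone as a block *Gatad2b* passed (limma adjusted p = 0.0421). In 7 of the 8 all Dox libraries were below all NoDox libraries, as in 92.6% of all genes, the exception being *Gatad2b*. The median z of the 8 genes was -0.150, beside -0.1915 over all 517 genes, and that of the WT pair was -0.127, beside -0.2004. The WT pair is 1 library per arm and has no spread of its own, so the limma contrast of the clones with it is not used as a test, and differences from the pair are given as estimates only.

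The largest estimate was that of *H2afz*, -0.118, with z of -0.174 in the clones and -0.0561 in the WT pair. The single NoDox library of the pair lay below every clone (0.312 against 0.376 to 0.384), and its Dox library above every clone (0.256 against 0.192 to 0.224). The NoDox difference was the larger of these. From its own NoDox library the ratio changed by -0.185 in clone 4C7A, -0.183 in 4C8E and -0.153 in 4F9F. The other estimates lay between -0.0170 for *Chd1l* (-0.0303 to -0.00952 with single clones left out) and 0.0583 for *Gatad2b* (0.0330 to 0.0721).

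The 8 genes lay at different distances from the transgene. *Actl6a* was the farthest, at 93.1 Mb, and *H2afz* the nearest, at 12.1 Mb. In WT the z of *H2afz* could not be separated from that of *Setdb1*, 30.5 Mb away. *Trim33* lay 22.5 Mb away, *Chd1l* 28.2 Mb, *Pogz* 30.9 Mb, *Gatad2b* 35.5 Mb and *Ash1l* 36.8 Mb. Each gene was therefore set beside the genes whose midpoints lie within 2 Mb of its own. The median z of the 13 genes around *H2afz* was -0.216 in WT, and 12 of them were silenced more strongly than *H2afz*. Around *Actl6a* it was -0.0783, and 20 of 21 genes were silenced more strongly. *Trim33* was also weaker than its surroundings, where the median of 25 genes was -0.252 and 18 exceeded it.

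*Ash1l*, *Gatad2b*, *Pogz* and *Setdb1* lie in the stretches with the most listed genes around them. The stretches of *Ash1l* and *Gatad2b* overlap, as do those of *Pogz* and *Setdb1*, so their medians are not independent. The median z there in WT was nearer 0 than the -0.158 of all genes, at -0.0847 for the 72 genes around *Ash1l*, -0.0966 for the 55 around *Gatad2b*, -0.119 for the 40 around *Pogz* and -0.123 for the 43 around *Setdb1*. *Pogz* was silenced more strongly than most of its surroundings, with 12 of 40 genes beyond it, whereas 56 of 72 genes exceeded *Ash1l*. *Chd1l* was likewise among the stronger genes of its stretch, with 6 of 22 beyond it and a median of -0.196. In *Suz12* null cells the median was -0.0540 around *Ash1l*, -0.197 around *H2afz* and -0.0438 around *Gatad2b*. *Gatad2b*, at -0.0753 there, was thus below the median of its surroundings, and in WT above it. In *Lbr* null cells the medians around *Ash1l* (-0.121) and *Gatad2b* (-0.141) were nearer 0 than that of all genes (-0.1915), whereas those around *Setdb1* (-0.2003) and *Pogz* (-0.189) were close to it.

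**Figure D3:**
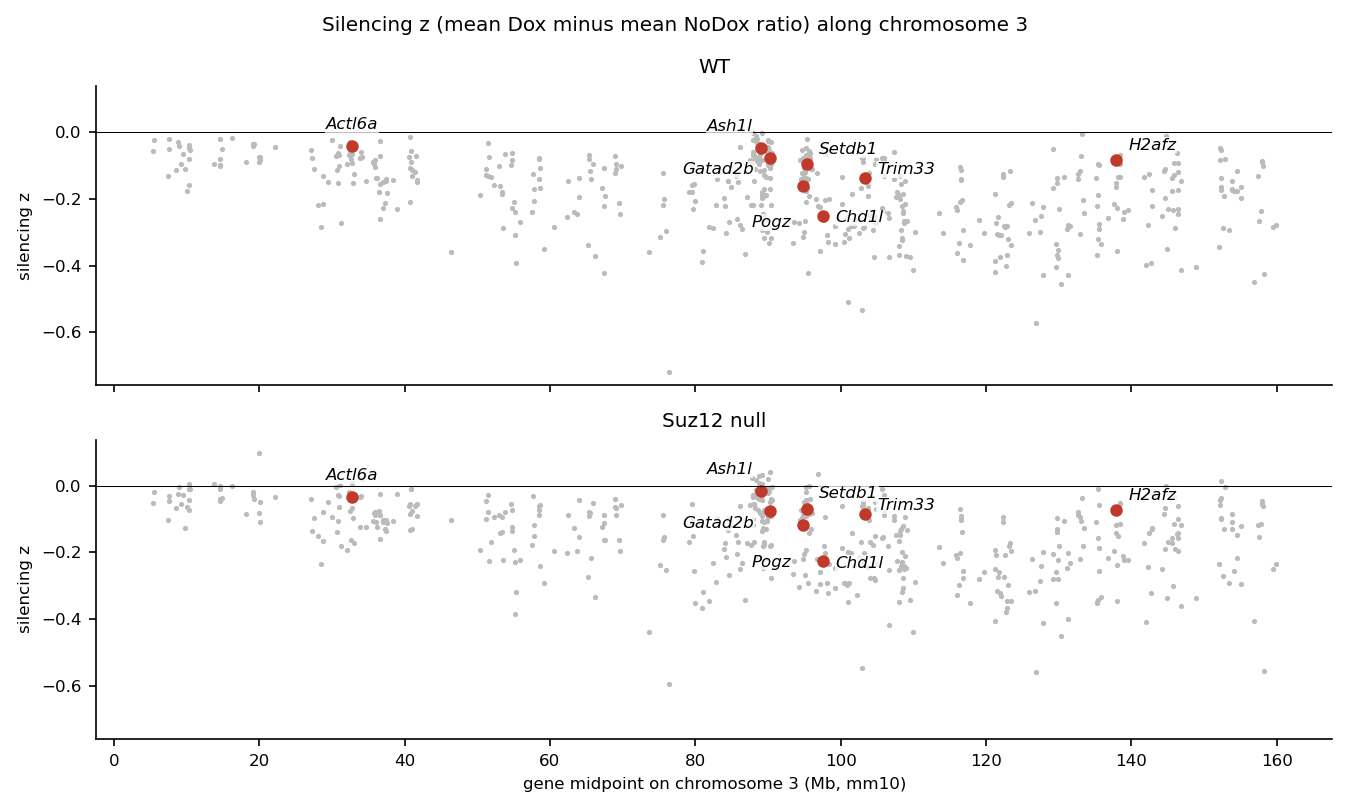
Silencing z of each gene (y axis) against its midpoint on chromosome 3 (x axis, Mb) in WT (top) and *Suz12* null cells (bottom), with the 8 genes in red and the other genes of the table in grey. Of the 8 genes, *Actl6a* lies farthest from the transgene, with z = -0.0405 in WT, and *Chd1l* is the lowest in both lines.

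Single neighbours, here the nearest genes with a ratio on each side, could differ widely from these genes. *Pogz* lies between *Cgn*, with z of -0.315 in WT, and *Psmb4*, with -0.0788. *Gatad2b* lies between *Dennd4b* (-0.1365) and *Ints3* (-0.219), and *Ash1l* between *Dap3* (-0.0661) and *Rusc1* (-0.220). *Setdb1* overlaps *Cers2*, on the opposite strand, over 0.223% of its length, and *Cers2* had a WT z of -0.1675, against -0.0208 for the gene after *Setdb1*, *Gm4349*. *Chd1l* lies between *Bcl9* (-0.356) and *Prkab2* (-0.264), *Trim33* between *Bcas2* (-0.283) and *Hipk1* (-0.135), *Actl6a* between *Gnb4* (-0.0814) and *Mrpl47* (-0.0924), and *H2afz* between *Ddit4l* (-0.216) and *Dnajb14* (-0.164).

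The gene with the most similar ratios was sought over all 20 libraries among the 498 shared genes, by the root mean square difference. It was *Pkn2* for *Pogz* (0.0156), *Spata5* for *Trim33* (0.0194), *Ect2* for *Ash1l* (0.0208) and *Fxr1* for *Actl6a* (0.0235). For *Setdb1* it was *Iqgap3* (0.0241), for *Gatad2b* *Atp11b* (0.0276), for *H2afz* *Hipk1* (0.0334) and for *Chd1l* *Rap1gds1* (0.0437). Only *Fxr1* lies near its partner, 1.33 Mb away, and the others lie 7.24 to 65.8 Mb away.

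The genes also differed in expression, taken as the RPKM that the authors list per gene without naming its library. *H2afz* had 85.8, *Setdb1* 49.6, *Trim33* 41.1, *Ash1l* 30.7, *Gatad2b* 28.9, *Actl6a* 24.0, *Pogz* 15.2 and *Chd1l* 8.45. The first 6 were in the highest group of 3 equal groups of the 538 genes and *Pogz* and *Chd1l* in the middle one. These last had the 2 lowest z of the 8 genes in WT, though the gap between *Pogz* (-0.161) and *Trim33* (-0.138) was not tested. In *Suz12* null cells *Trim33*, of the highest group, again had the higher z (-0.0856 against -0.117). In *Lbr* null cells the 2 were alike (-0.1855 and -0.1846).

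Promoter sequences are shown for *Chd1l* and *Actl6a*, with the lowest and the highest z of the 8 genes in WT. That of *H2afz*, the nearest of the 8 to the transgene, is also shown. Promoters of 300 bases, from RefSeq (GRCm38.p6, the assembly that mm10 names), were at hand for 6 of the 8 genes. The promoter list used held no entry for *Ash1l* and *Trim33*, although RefSeq lists both genes. The letters CG, which read the same on both strands, were searched and are in capitals. The promoter of *H2afz* (chr3:137864237-137864536, plus strand) holds 34 CG, a number reached by 7.73% of the 32851 promoters. That of *Chd1l* (chr3:97610141-97610440, minus strand) holds 24, reached by 20.0%, and that of *Actl6a* (chr3:32708296-32708595, plus strand) 21, reached by 24.8%. *Setdb1* has 15 (reached by 34.6%) and *Pogz* 16 (33.0%). *Gatad2b*, with 2 listed starts, has 22 (23.1%) and 16 (33.0%). The median of all promoters is 7. All 6 genes have more CG than that median, which by its definition many other promoters exceed too.
H2afz: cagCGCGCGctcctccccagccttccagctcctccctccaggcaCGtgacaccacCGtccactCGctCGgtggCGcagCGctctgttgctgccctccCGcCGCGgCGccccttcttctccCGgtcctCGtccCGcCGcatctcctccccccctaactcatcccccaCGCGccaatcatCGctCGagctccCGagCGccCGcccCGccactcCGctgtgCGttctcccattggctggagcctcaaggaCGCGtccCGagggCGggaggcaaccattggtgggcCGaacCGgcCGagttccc
Chd1l: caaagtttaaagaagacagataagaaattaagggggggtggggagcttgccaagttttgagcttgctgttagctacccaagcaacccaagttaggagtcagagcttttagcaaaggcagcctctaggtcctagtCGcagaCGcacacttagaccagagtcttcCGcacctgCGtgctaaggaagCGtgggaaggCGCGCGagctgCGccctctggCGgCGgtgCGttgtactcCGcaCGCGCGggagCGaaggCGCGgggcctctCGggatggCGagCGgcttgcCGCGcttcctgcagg
Actl6a: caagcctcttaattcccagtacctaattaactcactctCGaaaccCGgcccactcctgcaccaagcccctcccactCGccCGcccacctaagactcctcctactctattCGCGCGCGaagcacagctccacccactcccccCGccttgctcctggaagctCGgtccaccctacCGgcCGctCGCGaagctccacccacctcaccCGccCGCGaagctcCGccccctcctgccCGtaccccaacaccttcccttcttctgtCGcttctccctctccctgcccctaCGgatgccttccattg

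Other chromatin genes of chromosome 3 were taken from a list of 27, grouped by role. Of these, 18 had a ratio in the table of WT and *Suz12* null cells, and none of the 9 histone genes did. In WT cells 15 of the 18 fell by limma (85.5% of all genes did so), with a median z of -0.0880 beside -0.158 over all genes. Of the 18, 13 fell in *Suz12* null cells (73.2% of all genes), with a median of -0.0683 beside -0.122. The medians of the 8 genes described above were -0.0903 and -0.0745. None of the 18 passed the *Suz12* null minus WT test, where their median difference was 0.0334 beside 0.0343 over all genes. In *Lbr* null cells 17 of the 18 fell, and 92.5% of all genes, with a median z of -0.1175 for the 18, -0.150 for the 8 and -0.1915 over all genes.

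The 3 strongest in WT were *Prmt6*, an arginine methyltransferase, with z of -0.300, *Ttf2*, an ATPase that releases RNA polymerase, with -0.291, and *Tet2*, an enzyme that oxidises methylcytosine, with -0.242. For *Tet2* z was -0.126 in *Suz12* null cells, a difference of 0.115 that did not pass (limma adjusted p = 0.294). The 3 weakest by z, on the ratio scale, were *Mecom* with -0.0232, *Skil* with -0.0421 and *Tbl1xr1* with -0.0444. By residual odds *Mecom*, at 71.4% in WT, was lower than *Skil* (84.2%) and *Tbl1xr1* (83.5%). *Mecom* had a NoDox ratio of 0.0867 in WT and 0.218 in *Suz12* null cells (limma adjusted p = 0.115 for that difference). Its z was -0.0927 in *Suz12* null cells (limma adjusted p = 0.00790), where it passed, and it did not in WT (adjusted p = 0.401). The difference in z, -0.0695, is opposite in sign to the median over all genes and did not pass (limma adjusted p = 0.400).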

How the data were processed

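The authors removed rRNA reads with Bowtie2 2.3.2 and aligned the others with STAR 2.4.2a to mm10 masked at SNPs. Unique alignments were divided by allele with SNPsplit and counted per gene and strand with featureCounts. Each deposited value is a fraction, Xi/(Xi + Xa), for genes with enough SNP-covering reads. The deposited RPKM names no library. Columns of the authors' group means, Dox minus NoDox differences and p-values were not used.

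The test was limma 3.58.1 (R 4.3.3) with 1 coefficient per group, moderated variance and Benjamini-Hochberg adjustment over all genes of a table, at an adjusted p under 0.05. It was tested on simulated data. WT and *Suz12* null libraries shared a fit, and tables stayed apart. Python 3.11.15, numpy 2.4.6, pandas 2.3.3 and matplotlib 3.10.9 did the rest. Residual odds are Xi/Xa with Dox over Xi/Xa in NoDox, from mean ratios. Starts were read as counting from 0 and are given from 1. Depth is unknown, and p-values measure the spread between libraries, which only the *Lbr* null labels tie to separate clones.

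The libraries of 1 clone pair by origin. Their deviations from group means correlated between -0.113 and 0.028. Alternatives were a block for the replicate number or clone, the logit scale, a filter on the NoDox ratio (0.2 to 0.8), trend and robust or no moderation, an adjusted p under 0.01, each library or clone left out, and Student's t-test, which the methods name without a formula and which was run on each Dox library minus the NoDox mean of its line, so that the NoDox spread does not enter. All 8 genes, their neighbours and most similar genes are named. Other chromatin genes are named if they passed a test between lines or were among the 3 strongest or weakest in WT. The 2 Mb surroundings were added after values were seen. The genes and lists were chosen with earlier results of these data known.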

Additional observations from a re-analysis of the deposited data

How the results depend on the processing

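Of 736 values of single genes under the alternatives, 690 kept their direction and side of the threshold. Of the others 15 lost a call, 7 gained one and 24 changed sign. All 24 arose where a library or clone was left out of a difference between lines that had not passed. The 736 include 72 from *Lbr* null minus the WT pair, which is not used as a test, and 71 of these are among the 690.

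The *Suz12* null minus WT test called 2 genes in all and 0 of the 8. It called 1 gene with the NoDox filter, 1 with the replicate block, 7 with no moderation (1 of the 8, *Trim33*), 5 by Student's t-test with adjustment (1 of the 8, *Trim33*) and 117 by the same t-test with no adjustment (2 of the 8, *Trim33* and *Pogz*). That t-test holds the NoDox means fixed, and it was not shown that the study's own calculation did so. With single libraries left out limma called 2 to 3 genes and 0 of the 8. In NoDox, 0 genes were called, 1 with no moderation, 3 with the replicate block and 0 to 3 with libraries left out. In these libraries the replicates were taken to share only a number. Same-numbered deviations correlated between -0.104 and 0.123, and 8 of 12 libraries correlated best with their own number, where 4 would be expected without pairing, a hint of pairing from the data and not the design. The replicate block changed no call among the 8 genes there, and among the clones that of *Gatad2b* alone.

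With the mean over the 8 genes in place of the median, z was -0.112 in WT, -0.0869 in *Suz12* null, -0.139 in *Lbr* null cells and -0.137 in the WT pair. The median over genes was -0.0831 in *Suz12* null cells with the median over libraries. Leaving out libraries gave medians of -0.104 to -0.0837 in WT, -0.0883 to -0.0690 in *Suz12* null and -0.157 to -0.146 in *Lbr* null cells.

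Left-out libraries changed the sign of these *Suz12* null minus WT differences in z: *Actl6a* from -0.00241 to 0.0233, *Chd1l* from -0.0197 to 0.0576, *Gatad2b* from -0.0124 to 0.0161 and *H2afz* from -0.00981 to 0.0261. In NoDox they did so for *Actl6a* (-0.0227 to 0.00299), *Trim33* (-0.00783 to 0.00284), *Ash1l* (-0.00402 to 0.00490), *Chd1l* (-0.0398 to 0.0374) and *H2afz* (-0.0193 to 0.0147). For *Lbr* null minus the WT pair *Trim33* ranged from -0.00921 to 5.885e-05.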
